A study of Mus musculus with 8 samples.

Results

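The genes described here are effectors of type I interferon, the antiviral cytokine family whose action is high in lupus. They were taken by a list of 37 gene symbols, and 36 of them had a probe that carried that symbol, among 19505 genes with a named probe. Ifi44 was not analysed here. Each of the 36 was on 1 probe. Expression was measured in total RNA of kidneys from NZBWF1 mice, a first-generation cross of NZB and NZW parents in which an autoimmune nephritis resembling human lupus appears with age. The 8-week group held 4 samples and the 28-week group held 4 samples, each on its own Clariom S Mouse array, and the labels number them as replicates 1 to 4 and 6 to 9. No label says whether they came from separate animals, so p-values measure only the spread between these samples, which may be technical. All samples carried the same strain label and no treatment was named. With no other strain analysed here, age and disease stage cannot be told apart in this comparison.

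Type I interferons bind the receptor encoded by Ifnar1 and Ifnar2, and the kinases Jak1 and Tyk2 then activate transcription factors that join Irf9 and bind a short DNA element, the interferon-stimulated response element (ISRE), in front of effector genes. The effectors act inside cells: they trap foreign RNA, degrade it, block the entry or release of virus particles, or modify other proteins. In lupus nephritis the same genes are known to be expressed in resident kidney cells as well as in infiltrating leukocytes.

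Values below are log2 expression values after robust multi-array averaging (RMA), with n = 4 arrays at each age, and a difference is the 28-week mean minus the 8-week mean with the standard error (SE) of limma. Adjusted p-values come from limma and were corrected over the 22206 probes by the Benjamini-Hochberg method; a gene was called when its adjusted p was under 0.05. Array medians lay between 5.98 and 6.14, and the median difference over all probes was -0.01. One array stood apart from its age group: 28-week replicate 7 had a mean correlation across probes of 0.9897 with the 8-week arrays and of 0.9858 with the other 28-week arrays. By residual spread, limma's array weights were lowest for 8-week replicate 1 (0.399), then for 28-week replicate 7 (0.799), and at least 0.93 for the others. The tubule genes Slc34a1 and Lrp2 had 8-week means of 18.21 and 18.13, near the top of the scale of 2.31 to 19.89.

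The promoters of these genes often held the ISRE. Promoter sequences of 300 bases, 250 before to 50 after a start site, were found in the RefSeq table (build GRCm38.p6) for 26 of the 36 genes. The ISRE core, GAAA followed after any 2 bases by GAAA, was searched on both strands with overlapping matches allowed. It was present for 13 of these 26 genes (50%), against 3.99% of all 27025 genes and 3.44% of all 32851 promoters in that table. It was found for 4 of 5 Ifit genes, 3 of 5 Oas genes, 2 of 3 Ifitm genes and 3 of 5 genes of other antiviral factors. None of the 6 matched genes of the PARP and chromatin group and of the remaining induced genes held it in this window, and a match or its lack is only a description of these letters. The median difference between ages was 1.01 for the 13 genes with the core and 0.85 for the 13 without it. The core TTCNNNGAA of the interferon-gamma activated site was present for 5 of the 26 genes (19.2%), against 9.55% of all genes.

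The 60-base windows around the match are shown for the 6 genes with the core that had the smallest p between ages, to show where the element lies in each; capitals mark each match. They run 5′ to 3′ on the strand of the gene. Isg15 lies at chr4:156200856-156200915 (minus strand), Ifitm2 at chr7:140955973-140956032 (minus strand), Ifitm3 at chr7:141010715-141010774 (minus strand), Bst2 at chr8:71537565-71537624 (minus strand), Ifit3 at chr19:34583365-34583424 (plus strand) and Ifit3b at chr19:34607761-34607820 (plus strand).
Isg15: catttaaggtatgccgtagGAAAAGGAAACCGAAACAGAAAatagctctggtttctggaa
Ifitm2: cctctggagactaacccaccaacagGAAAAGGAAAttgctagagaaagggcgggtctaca
Ifitm3: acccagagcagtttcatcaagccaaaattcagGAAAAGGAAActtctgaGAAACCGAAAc
Bst2: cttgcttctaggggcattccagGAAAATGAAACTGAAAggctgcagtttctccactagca
Ifit3: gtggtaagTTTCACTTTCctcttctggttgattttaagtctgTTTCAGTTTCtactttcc
Ifit3b: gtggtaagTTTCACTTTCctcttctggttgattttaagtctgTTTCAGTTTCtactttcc
In Isg15 the core occurred as 3 overlapping matches, at positions -78 to -57 from the start site. In Ifitm3 the matches lay just behind the listed start site, from position 3. The windows of Ifit3 and Ifit3b were identical in 60 of 60 bases, and both carried the core on the opposite strand. These genes are close paralogs, as are Oas1a and Oas1g and the Ifitm genes, so their probes may share signal and their separate values are uncertain.

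Most effector genes had a higher mean in the 28-week kidneys, while few passed the adjusted threshold or had age groups that did not overlap. In whole-kidney RNA more cells of a type and more RNA per cell cannot be told apart. The mean was higher at 28 weeks for 34 of 36 genes, against 48.7% of all probes, and at least 2-fold higher for 14, against 2.31%. Their median difference was 0.90 (1.87-fold), with a range from -0.47 for Ifit1bl1 to 2.23 for Lgals3bp. The call was passed by 1 of 36, Isg15, against 0.446% of all probes called higher, and by none in the lower direction, against 0.522% of all probes. At an unadjusted p under 0.05 in limma, 22 of 36 were higher and none lower. Of all 22206 probes, 3329 had such a p in either direction, and 1857 of these (8.36% of all probes) were higher. The 4 arrays of 28 weeks lay above the 4 of 8 weeks for 6 of 36 genes, Ifit3, Isg15, Rtp4, Ifitm1, Lgals3bp and Samd9l, against 4.38% of all probes. The opposite order was found for none of them, against 4.33%.

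**Figure D1:**
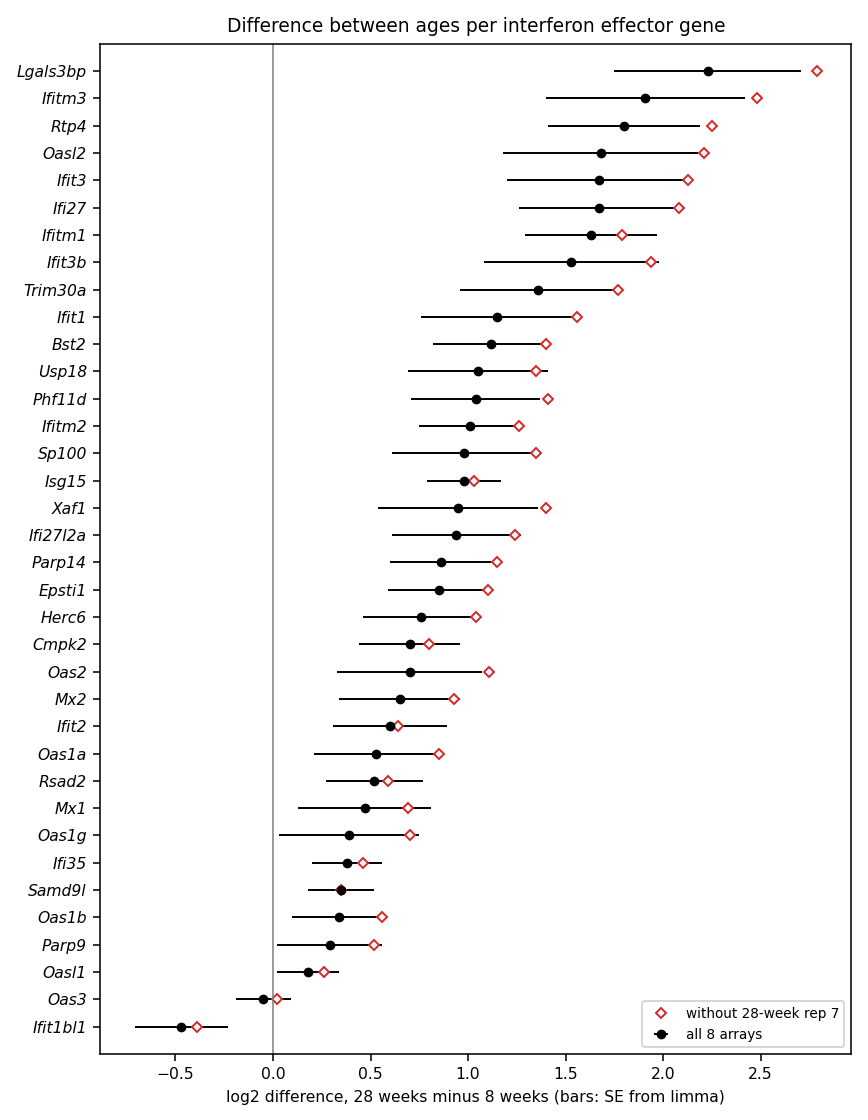
Difference between ages for each of the 36 genes on the log2 scale; black points with bars are the limma difference and its SE over all 8 arrays, open red diamonds the difference without 28-week replicate 7. Of the 36 genes, 34 lie to the right of 0, from 0.18 for Oasl1 to 2.23 for Lgals3bp, and Ifit1bl1 lies lowest at -0.47.

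The effector genes varied more among the 28-week arrays than among the 8-week arrays. The SD was larger at 28 weeks for 32 of 36 genes, against 42.2% of all probes, and the median SD over the genes was 0.71 at 28 weeks and 0.33 at 8 weeks. Among the 28-week arrays replicate 6 was the highest for 30 of 36 genes, against 25.6% of all probes. Replicate 7 was the lowest for 31 of 36, against 25% of all probes. Replicate 6 was also the highest of all 8 arrays for 29 genes, against 12.8%. When each value was set against its gene's 8-week mean and averaged over the 36 genes, 28-week replicate 6 stood at 1.57, replicate 8 and replicate 9 at 1.0 each, and replicate 7 at 0.07. The 8-week arrays lay between -0.15 and 0.10. Replicate 7 was within the 8-week range for 21 genes, above it for 9 and below it for 6, which as shares of 36 are near those of all probes (65.5% within, 18.1% above and 16.4% below). The 9 genes above the 8-week range in that array were Isg15, Ifitm1, Rtp4, Lgals3bp, Ifit2, Ifit3, Rsad2, Cmpk2 and Samd9l.

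**Figure D2:**
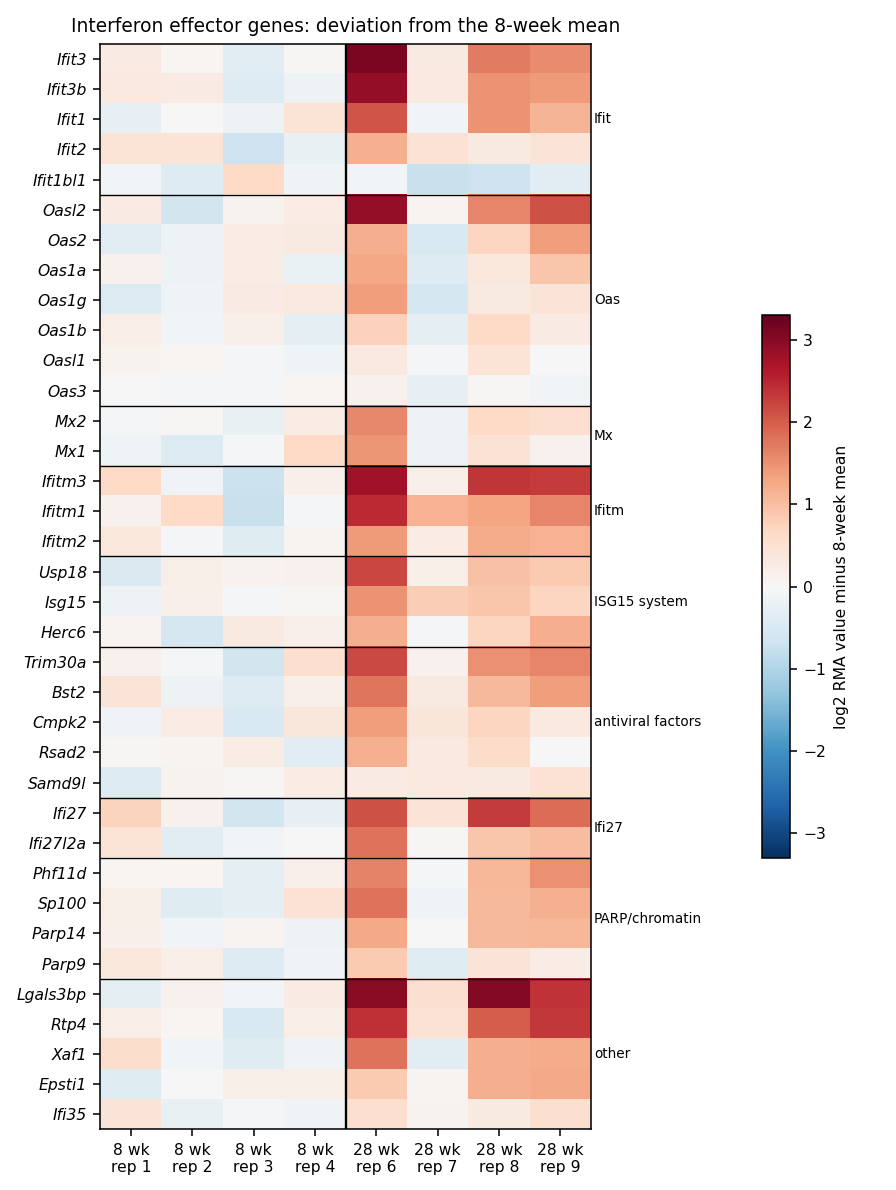
Deviation of the log2 RMA value from each gene's 8-week mean for 36 effector genes (rows, grouped by role) in 8 kidney samples (columns); red is higher and blue lower than the 8-week mean. Replicates 6, 8 and 9 of the 28-week group are red in most rows, with means over the genes of 1.57, 1.0 and 1.0, while replicate 7 is pale, with a mean of 0.07.

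Without 28-week replicate 7, 22 of 36 genes were called higher, against 3.63% of all probes, and none lower, against 1.95% of all probes. The median difference was then 1.13, where leaving out replicate 6 instead gave 0.68, and for 26 of 36 genes the remaining 28-week arrays lay above the 8-week arrays, against 9.47% of all probes. With 8-week replicate 1, the array of lowest weight, left out as well, 21 genes were called higher, against 4.19% of all probes, and none lower, against 2.04%. That 28-week array stood apart by its own values, so these numbers describe the remaining arrays and not the age groups as sampled.

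Isg15, the ubiquitin-like protein that is joined to other proteins after interferon stimulation, was the gene that passed the test. It read 4.12, 4.47, 4.25 and 4.34 in 8-week replicates 1 to 4, and 5.79, 5.10, 5.20 and 5.0 in 28-week replicates 6, 7, 8 and 9. All 28-week arrays were above all 8-week arrays, replicate 7 included. Isg15 rose by 0.98 (SE 0.19), from 4.29 ± 0.15 (SD, n = 4) to 5.27 ± 0.35 (SD, n = 4), which is 1.97-fold (limma adjusted p = 0.0464). The call was narrow: leaving out any single array other than 28-week replicate 7 ended it, at limma adjusted p from 0.0888 to 0.129, and it ended with arrays centred on their medians (0.0557) or on ribosomal protein genes (0.0546). The probe lay in the dimmest 3rd of all probes.

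Usp18, the protease that removes ISG15 from proteins and dampens the receptor, read 5.68, 6.35, 6.27 and 6.29 at 8 weeks and 8.34, 6.33, 7.12 and 7.02 at 28 weeks. Replicate 7 was inside the 8-week range and the other 28-week arrays were above it. The difference was 1.05 (SE 0.36, adjusted p from limma 0.19). Herc6, a ligase that attaches ISG15 in the mouse, had a difference of 0.76 (SE 0.30) and was not called either.

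The Ifit genes encode proteins that bind foreign RNA and block its translation, and they are neighbours: in the RefSeq order Ifit2, Ifit3, Ifit1bl1 and Ifit3b stand side by side. None of the 5 was called. Ifit3 read 10.14, 9.92, 9.49 and 9.90 at 8 weeks and 12.98, 10.15, 11.58 and 11.42 at 28 weeks. The groups did not overlap, but replicate 7 cleared the highest 8-week array by a small step, while replicate 6 stood far above it. The Ifit3 difference was 1.67 (SE 0.47), or 3.18-fold (limma adjusted p = 0.123).

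Ifit3b read 9.68, 9.64, 8.93 and 9.18 at 8 weeks and 12.26, 9.67, 10.85 and 10.77 at 28 weeks, a difference of 1.53 (SE 0.45, limma adjusted p = 0.132). The 28-week arrays had the same order as for Ifit3, but the ages overlapped, with replicate 7 just below 8-week replicate 1. Ifit1 read 5.32, 5.57, 5.42 and 6.05 at 8 weeks and 7.66, 5.49, 7.08 and 6.71 at 28 weeks, a difference of 1.15 (SE 0.39, limma adjusted p = 0.188). Here replicate 7 sat in the middle of the 8-week arrays. Without replicate 7 these 3 genes were called, at limma adjusted p of 0.00751 for Ifit3, 0.0137 for Ifit3b and 0.00751 for Ifit1.

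The other Ifit genes did not have that pattern. Ifit2 read 7.74, 7.74, 6.60 and 7.05 at 8 weeks and 8.46, 7.75, 7.59 and 7.71 at 28 weeks. The ages overlapped, with a difference of 0.60 (SE 0.29, limma adjusted p = 0.376), and it was 0.64 without replicate 7. Ifit1bl1, a gene related to Ifit1, read 5.62, 5.28, 6.38 and 5.57 at 8 weeks and 5.62, 4.98, 5.03 and 5.33 at 28 weeks, with a difference of -0.47 (SE 0.24, limma adjusted p = 0.41). It was the one gene of the family with a lower mean at 28 weeks, and the ages overlapped.

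**Figure D3:**
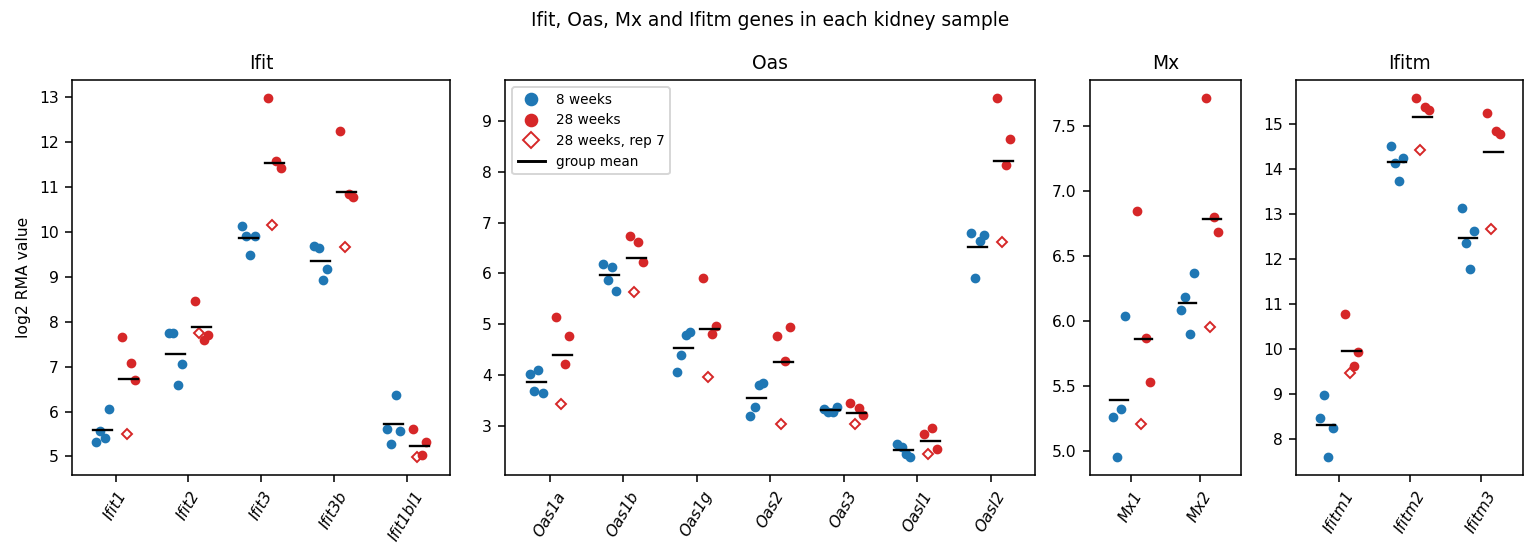
Log2 RMA value of each Ifit, Oas, Mx and Ifitm gene in each kidney sample; blue circles are 8-week arrays, red circles 28-week arrays, the open diamond 28-week replicate 7 and the black line the mean of the 4 arrays of one age. In Ifit3, Oasl2 and Ifitm3 the diamond sits at 10.15, 6.61 and 12.68, at or near the 8-week values, and the other red points are clearly above them.

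The Ifitm genes encode small membrane proteins that stop the fusion of virus with the cell, and Ifitm2, Ifitm1 and Ifitm3 are adjacent in the RefSeq order. Of the subfamilies with at least 3 genes theirs had the highest median difference, 1.63, against 1.15 for Ifit and 0.39 for Oas, though no test of one subfamily against another was made. Ifitm1 read 8.47, 8.98, 7.6 and 8.26 at 8 weeks and 10.79, 9.48, 9.63 and 9.94 at 28 weeks. The ages did not overlap, and replicate 7 was above all 8-week arrays. The difference was 1.63 (SE 0.34), or 3.10-fold (limma adjusted p = 0.0573). This missed the threshold by little, and with arrays quantile-normalized again Ifitm1 was called (limma adjusted p = 0.0441).

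Ifitm3, which restricts influenza and other enveloped viruses, read 13.15, 12.37, 11.78 and 12.64 at 8 weeks and 15.25, 12.68, 14.85 and 14.78 at 28 weeks. Its difference was 1.91 (SE 0.51, 3.75-fold, limma adjusted p = 0.108). Replicate 7 was inside the 8-week range, and without it the difference was 2.48 (limma adjusted p = 0.00139). Ifitm2 read 14.51, 14.13, 13.75 and 14.26 at 8 weeks and 15.58, 14.42, 15.38 and 15.31 at 28 weeks, a difference of 1.01 (SE 0.26, limma adjusted p = 0.0984). Replicate 7 again lay among the 8-week arrays.

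The Oas genes encode oligoadenylate synthetases, which sense double-stranded RNA and switch on the nuclease RNase L, and the Oasl genes encode related proteins. None of 7 was called, and the difference was largest for Oasl2, while the others ran from -0.05 for Oas3 to 0.70 for Oas2. Oasl2 read 6.80, 5.91, 6.64 and 6.76 at 8 weeks and 9.44, 6.61, 8.13 and 8.64 at 28 weeks. Replicate 7 was at the 8-week level and the other 28-week arrays were above the 8-week range. The difference was 1.68 (SE 0.50, 3.20-fold, limma adjusted p = 0.138), and without replicate 7 it was 2.21 (limma adjusted p = 0.0041).

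Oas2 read 3.20, 3.38, 3.81 and 3.85 at 8 weeks and 4.77, 3.05, 4.28 and 4.95 at 28 weeks, a difference of 0.70 (SE 0.37, limma adjusted p = 0.425). Replicate 7 was the lowest of all 8 arrays, and without it Oas2 was called, with a difference of 1.11 (limma adjusted p = 0.0221). Oas1a read 4.02, 3.69, 4.10 and 3.66 at 8 weeks and 5.15, 3.43, 4.22 and 4.78 at 28 weeks, with a difference of 0.53 (SE 0.32). Oas1g read 4.07, 4.39, 4.79 and 4.86 at 8 weeks and 5.91, 3.96, 4.82 and 4.96 at 28 weeks, with a difference of 0.39 (SE 0.36). In both the ages overlapped and replicate 7 was again below every 8-week array.

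Oas1b read 6.19, 5.88, 6.12 and 5.66 at 8 weeks and 6.73, 5.64, 6.62 and 6.23 at 28 weeks, a difference of 0.34 (SE 0.24). RefSeq lists Oas1b of the C57BL/6J genome as a transcribed pseudogene. Oasl1 read 2.65, 2.60, 2.46 and 2.39 at 8 weeks and 2.84, 2.46, 2.97 and 2.55 at 28 weeks, a difference of 0.18 (SE 0.16). Oas3 read 3.34, 3.28, 3.28 and 3.37 at 8 weeks and 3.45, 3.05, 3.35 and 3.22 at 28 weeks, a difference of -0.05 (SE 0.14), which turned to 0.02 without replicate 7. Of the 7 Oas genes 5 had probes in the dimmest 3rd of all probes (Oas1a, Oas1g, Oas2, Oas3 and Oasl1), so a small difference there does not show that the transcript did not change.

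The Mx genes encode dynamin-like GTPases that block viruses, and RefSeq lists both as transcribed pseudogenes in the C57BL/6J genome. Mx1 read 5.26, 4.95, 5.32 and 6.04 at 8 weeks and 6.84, 5.21, 5.87 and 5.53 at 28 weeks. The ages overlapped, with a difference of 0.47 (SE 0.34, limma adjusted p = 0.601). Mx2 read 6.08, 6.18, 5.90 and 6.37 at 8 weeks and 7.71, 5.95, 6.80 and 6.68 at 28 weeks, a difference of 0.65 (SE 0.31, limma adjusted p = 0.366). Neither was called without replicate 7, at limma adjusted p of 0.355 for Mx1 and 0.0715 for Mx2, and replicate 6 was the highest array for both.

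Among other antiviral factors the differences ran from 0.35 for Samd9l to 1.36 for Trim30a, and none of 5 was called. Bst2, the tetherin that holds budding virus at the cell surface, read 7.37, 6.76, 6.51 and 7.09 at 8 weeks and 8.70, 7.22, 8.01 and 8.30 at 28 weeks. Its difference was 1.12 (SE 0.30, limma adjusted p = 0.11), with replicate 7 below the highest 8-week array. Trim30a, a regulator of innate signalling, read 6.49, 6.29, 5.75 and 6.90 at 8 weeks and 8.54, 6.49, 7.87 and 7.97 at 28 weeks, a difference of 1.36 (SE 0.40, limma adjusted p = 0.134). Rsad2, which encodes viperin, and its neighbour Cmpk2, a nucleotide kinase gene, had differences of 0.52 (SE 0.25) and 0.70 (SE 0.26). Samd9l, a restriction factor gene, read 12.39, 12.93, 12.85 and 13.05 at 8 weeks and 13.08, 13.14, 13.10 and 13.29 at 28 weeks. The Samd9l groups were separated by a step of 13.05 to 13.08 only, and 28-week replicate 6 was its lowest 28-week array.

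The adjacent genes Ifi27l2a and Ifi27 encode small hydrophobic proteins strongly induced by interferon. Ifi27 read 9.0, 8.40, 7.67 and 7.99 at 8 weeks and 10.36, 8.70, 10.56 and 10.10 at 28 weeks. The difference was 1.67 (SE 0.41, 3.17-fold, limma adjusted p = 0.0894), and 8-week replicate 1 was above 28-week replicate 7. Ifi27l2a had a difference of 0.94 (SE 0.33, limma adjusted p = 0.198) and a dim probe.

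In the group of PARP enzymes and chromatin-associated proteins none of 4 was called and replicate 7 lay within the 8-week range for all 4. Parp14, an ADP-ribosyltransferase gene, read 6.53, 6.25, 6.44 and 6.19 at 8 weeks and 7.61, 6.36, 7.43 and 7.46 at 28 weeks. The other 28-week arrays were close together and above the 8-week arrays. The difference was 0.86 (SE 0.26, limma adjusted p = 0.139). Phf11d, which encodes a PHD finger protein, read 7.39, 7.38, 7.02 and 7.47 at 8 weeks and 8.96, 7.24, 8.40 and 8.82 at 28 weeks, a difference of 1.04 (SE 0.33, limma adjusted p = 0.163). Sp100, a nuclear body protein gene, and Parp9 had differences of 0.98 (SE 0.37) and 0.29 (SE 0.27).

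Of the remaining induced genes Lgals3bp, which encodes a secreted glycoprotein that binds galectins, had the highest difference of all 36. Lgals3bp read 8.61, 9.07, 8.86 and 9.22 at 8 weeks and 11.92, 9.47, 11.96 and 11.32 at 28 weeks. The ages did not overlap, with replicate 7 just above the 8-week arrays and the others far above. The difference was 2.23 (SE 0.48), or 4.68-fold (limma adjusted p = 0.0618), and 2.79 without replicate 7 (limma adjusted p = 0.000211). Rtp4, a chaperone gene of cell-surface receptors, read 5.60, 5.45, 4.88 and 5.59 at 8 weeks and 7.78, 5.85, 7.39 and 7.72 at 28 weeks, with a difference of 1.80 (SE 0.39, limma adjusted p = 0.0638). Lgals3bp and Rtp4 were both called with all arrays weighted by their residual spread, at limma adjusted p of 0.0234 and 0.0228. Xaf1, a gene linked to cell death, Epsti1 and Ifi35 had differences of 0.95 (SE 0.41), 0.85 (SE 0.26) and 0.38 (SE 0.18), and none was called.

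None of the ligand, receptor, signalling and inhibitor genes of the pathway was called, where 0.446% of all probes were called higher and 0.522% lower. Without 28-week replicate 7, 4 of 7 signalling genes and 2 of 6 receptor genes were called higher, against 3.63% of all probes. The 4 signalling genes were Stat2, Irf9, Irf7 and Irf1. No ligand or inhibitor gene was called in that fit. The ligand list held 19 measured interferon genes, Ifnb1 and the Ifna genes among them. Their median difference was 0.00, with 10 higher and 9 lower means, and 13 of the 19 probes lay in the dimmest 3rd, so low ligand expression would not be seen. The smallest p among them was that of the type III interferon gene Ifnl3, with a difference of 0.55 (SE 0.19, limma adjusted p = 0.202). The Ifnl3 values did not overlap between ages, at 5.55 to 6.34 and 6.41 to 6.67, and replicate 7 had the highest. No overlap in the opposite direction was found for 1 ligand gene, Ifnab. Of 6 receptor genes, 5 had a higher mean, against 48.7% of all probes. Ifnar1 went from 9.77 ± 0.31 (SD, n = 4) to 9.98 ± 0.15 with age (limma adjusted p = 0.668). Ifngr2, a receptor gene of interferon gamma, had the smallest p and went from 9.61 ± 0.08 to 10.19 ± 0.42 (limma adjusted p = 0.2).

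Of 7 signalling genes, 4 had a higher mean, against 48.7% of all probes. The kinase genes Jak1, Jak2 and Tyk2 had differences of 0.00, -0.34 and -0.13, while those of the transcription factor genes were above 0. Irf9, a DNA-binding factor of the ISRE, read 6.30, 6.08, 5.91 and 6.24 at 8 weeks and 8.37, 6.25, 7.62 and 7.77 at 28 weeks, a difference of 1.37 (SE 0.37, limma adjusted p = 0.11). Irf7, the factor that amplifies interferon production, read 5.62, 4.66, 4.80 and 4.74 at 8 weeks and 7.72, 4.86, 6.45 and 6.79 at 28 weeks, a difference of 1.5 (SE 0.50, limma adjusted p = 0.18). Both had the array pattern of the effectors, with replicate 6 highest and replicate 7 at the 8-week level.

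Of 7 inhibitor genes, 5 had a higher mean, against 48.7% of all probes. Socs3, which blocks JAK kinases, had the smallest p, with a difference of 0.46 (SE 0.16, limma adjusted p = 0.185) and no overlap between ages on a dim probe. Of 29 further effector genes outside the list of 36, 22 had a higher mean, against 48.7% of all probes. Without 28-week replicate 7, 11 of the 29 were called higher, against 3.63% of all probes. With all arrays 1 was called higher, against 0.446% of all probes: Ddx58, the gene of the RNA sensor RIG-I. Ddx58 read 8.60, 9.22, 9.14 and 9.21 at 8 weeks and 10.43, 9.61, 10.26 and 10.28 at 28 weeks, and rose by 1.10 (SE 0.22, limma adjusted p = 0.0474). With 1 array left out at a time its limma adjusted p ran from 0.00416 without 28-week replicate 7 to 0.167. As for Isg15, replicate 7 was above all 8-week arrays. The median difference of these 29 genes was 0.31, with a range from -0.19 to 1.70.

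**Figure D4:**
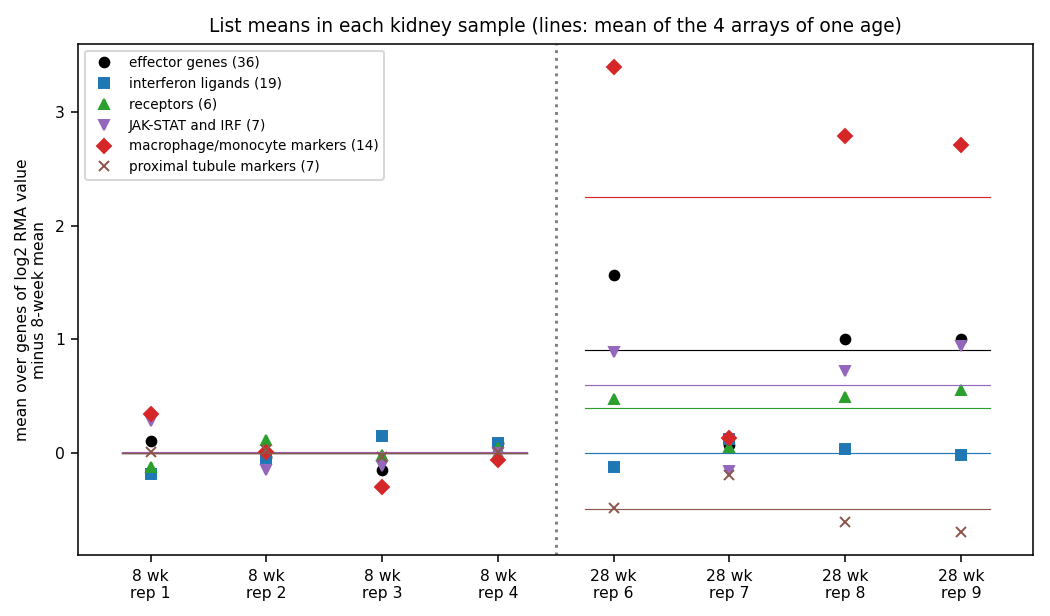
Mean over the genes of a list of the log2 RMA value minus the 8-week mean, in each kidney sample; each marker is 1 list in 1 array, and thin lines are the mean of the 4 arrays of one age. The 36 effector genes stand at 1.57, 0.07, 1.0 and 1.0 in 28-week replicates 6, 7, 8 and 9, the macrophage and monocyte markers at 3.40, 0.13, 2.79 and 2.71, and the interferon ligands between -0.13 and 0.12.

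By the mean over genes, several other lists had the same ends of the 28-week array order as the effector genes. In these, replicate 6 was highest and replicate 7 lowest. These were the macrophage and monocyte, pan-leukocyte, T and NK cell and endothelial markers, the inhibitors and the 29 further effectors. The last stood at 0.91, -0.12, 0.58 and 0.56 relative to their 8-week means in replicates 6, 7, 8 and 9, the T and NK cell markers at 0.75, 0.08, 0.55 and 0.48, and the endothelial markers at 0.60, -0.04, 0.16 and 0.33. By the median over genes, however, replicate 9 was highest for the inhibitors (0.21, against 0.11 in replicate 6). Replicate 8 was highest by the median for the T and NK cell markers (0.78, against 0.69 in replicate 6). Among the 5 endothelial markers, replicate 7 was the lowest 28-week array for 2 and replicate 8 for 3. All 14 measured macrophage and monocyte markers had a higher mean at 28 weeks, against 48.7% of all probes, and none was called, against 0.446%. Without replicate 7, 13 of these 14 were called higher, 4 of 4 pan-leukocyte markers, 3 of 9 T and NK cell markers, 1 of 7 B and plasma cell markers, and 1 of 5 endothelial markers, against 3.63% of all probes. The mean level of that list ran from 6.43 to 7.07 in the 8-week arrays and from 6.85 to 10.13 in the 28-week arrays, lowest in replicate 7 and highest in replicate 6. All 4 pan-leukocyte markers had a higher mean, with list levels of 6.06 to 6.54 at 8 weeks and 6.29 to 9.45 at 28 weeks. Of 9 T and NK cell markers 8 had a higher mean, and the list ran from 4.47 to 4.75 at 8 weeks and from 4.68 to 5.34 at 28 weeks. All 7 B and plasma cell markers had a higher mean, with list levels of 4.12 to 4.25 and 4.57 to 6.52, and none of the leukocyte markers was called. The B and plasma cell levels leaned on Jchain, with a difference of 4.77 (SE 1.22, limma adjusted p = 0.0971). Jchain ran from 3.49 to 5.08 at 8 weeks and from 5.83 to 12.79 at 28 weeks. The median difference of these 7 was 0.55, with 0.15 for Ms4a1 and 0.27 for Pax5, and 5 of the 7 probes lay in the dimmest 3rd. For plasmacytoid dendritic cells, the type known for interferon secretion, 4 of 6 markers had a higher mean and the list ranges overlapped, at 4.99 to 5.22 and 5.02 to 5.68, with none called, also without replicate 7. Among the 6, Siglech had a difference of 0.11 (SE 0.25), Irf8 one of 0.32 (SE 0.15) with no overlap between ages, and Ly6d one of 1.26 (SE 0.53, limma adjusted p = 0.294). Of 6 neutrophil markers 5 had a higher mean, and the list ran from 3.90 to 4.36 and from 4.20 to 4.53. The granule protein genes S100a8 and S100a9 differed by 0.13 and 0.12. Csf3r, the gene of a growth factor receptor, had a difference of 1.30 (SE 0.32, limma adjusted p = 0.0853) with no overlap between ages, and was called without replicate 7 (limma adjusted p = 0.00702).

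Of 5 endothelial markers 4 had a higher mean, and the list ran from 10.56 to 10.61 at 8 weeks and from 10.54 to 11.18 at 28 weeks. The other marker, Kdr, was lower by 0.40 (SE 0.14, limma adjusted p = 0.184) with no overlap between ages. Markers of other kidney epithelium ran from 14.44 to 14.89 and from 14.63 to 14.97, but single genes went in opposite directions. Slc12a1 had a difference of 0.99 (SE 0.25, limma adjusted p = 0.0916) with no overlap between ages. Slc12a3 had one of -0.68 (SE 0.24, limma adjusted p = 0.211), and was called lower without replicate 7 (limma adjusted p = 0.0387). All 7 proximal tubule markers had a lower mean at 28 weeks, and the list ran from 16.78 to 16.85 and from 16.12 to 16.63. Over all probes, 48.7% had a higher mean. Of these 7 markers 1 was called lower, against 0.522% of all probes. It was Slc22a6, an organic anion transporter gene, with a difference of -0.91 (SE 0.15, limma adjusted p = 0.0313). Its limma adjusted p ran from 0.0163 to 0.123 with 1 array left out at a time, so leaving out 1 array could end the call. Replicate 7 was at 14.54, against 15.20 to 15.65 at 8 weeks. Slc5a2 had the largest drop of the 7, -1.26 (SE 0.26, limma adjusted p = 0.0606), with no overlap between ages. All 28-week arrays lay below all 8-week arrays for 3 of the 7 markers, against 4.33% of all probes. Without replicate 7, 2 of the 7 were called lower, against 1.95% of all probes. The part of these cell types in the effector gene values was not tested.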

How the data were processed

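Kidney total RNA of 8 samples was measured on 1-colour Clariom S Mouse arrays, 4 per age. The authors' table holds RMA output, per the submitters' processing notes, and its deposited values were read as log2 from their range, since no log base was found; folds rest on that reading. The version of RMA was not found either. RMA compresses folds of dim probes and gives no detection call. All 22206 probes were fitted without a filter, using limma 3.58.1 (lmFit, then eBayes) under R 4.3.3; 19572 had 1 gene symbol and 2634 had none. Names come from the platform annotation, and the 36 genes were matched to RefSeq (GRCm38.p6) by gene identifier. No batch or scan date was in the sources used here. Replicate numbers are not shared between ages. No array was a copy of another: the highest correlation of a pair over all probes was 0.9934.

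The genes and lists were chosen with earlier results of these data known. Values in each array are given for called genes, the Ifit, Oas, Mx and Ifitm genes and, per other role, the gene with the smallest p and the one with the largest difference. Rtp4, Samd9l and the 4 arrays of Ddx58 at each age were added by their values, and markers of cell types by name. From upstream lists the gene with the smallest p is named, and Ifnar1, Irf7 and Irf9 always. The fitting script was tested on simulated data. Alternatives were other normalizations, filters on dim probes, variance models, a threshold of 0.01 and arrays left out. Python 3.11.15, pandas 2.3.3 and matplotlib 3.10.9 made the tables and figures.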

Additional observations from a re-analysis of the deposited data

Results flagged for a closer look

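Of 92 groups of 4 arrays examined for an array far from the others, 3 were beyond Dixon's critical value for 4 samples, where chance gives about 5% of groups. Usp18 in the 8-week group had replicate 1 at 5.68 and the others between 6.27 and 6.35 (ratio 0.881). Parp14 in the 28-week group had replicate 7 at 6.36 and the others between 7.43 and 7.61 (ratio 0.856). The mean deviation of Ifi35, Rtp4, Xaf1, Lgals3bp and Epsti1 in the 28-week group was 0.17 in replicate 7 and 1.54 to 1.72 in the others (ratio 0.884).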

How the results depend on the processing

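No paired analysis was possible because the ages share no replicate number. The median difference of the effector genes and the number with a higher mean kept their direction under every alternative in which they were recomputed. The median, 0.90, ran from 0.68 without 28-week replicate 6 to 1.13 without replicate 7. The genes with a higher mean numbered 34 or 35 of 36, and 28 of the 29 left when genes on the dimmest 3rd of probes were dropped. Of 36 genes 35 kept the sign of their difference; Oas3, at -0.05, was 0.02 without 28-week replicate 7, -0.11 without replicate 6, and 0.03 without that replicate 7 and 8-week replicate 1, a pair chosen after seeing the data. The call is less stable than the direction. In place of 1 called effector gene there were 0 with arrays centred on their medians and at an adjusted p under 0.01 in limma, 2 after quantile normalization or with 1 named probe per gene, 3 without the dimmest 50% of probes or with a trended, robust prior, and 10 with array weights. With arrays centred on ribosomal protein genes the 1 gene called was Ifitm1 and not Isg15. Without the dimmest 3rd of probes it was Ifitm1 too, but Isg15 is on such a probe and was not in that fit, nor in the fit without the dimmest 50%. Leaving out 1 array at a time gave 0 to 22 called effector genes, with the 22 from leaving out 28-week replicate 7, and leaving out both arrays gave 21. Over all probes, the 215 calls became 399 without the dimmest 50% of probes and also with the trended prior, 873 with array weights, 18 at an adjusted p under 0.01, 25 to 1237 with 1 array left out (1237 without 28-week replicate 7) and 1384 without both arrays. Groups that did not overlap went from 6 genes to 4 with median centring, to 7 with quantile normalization or ribosomal centring, to between 6 and 26 with 1 array left out (13 without 8-week replicate 1, 26 without 28-week replicate 7) and to 28 without both. Calls split into 99 higher and 116 lower here, and into 66 and 111 with median centring, under which the median over all probes shifted to -0.07. Signal over background is not known for these arrays, so it is not known which dim probes lie at background.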
